A study of Homo sapiens with 4 samples.

Results

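MHC class I molecules carry peptides from inside a cell to its surface, where CD8+ T cells inspect them. Each complex pairs a polymorphic heavy chain with the invariant light chain B2M, and it is filled in the endoplasmic reticulum with peptides that the transporter TAP1-TAP2 brings from the cytosol and that tapasin (TAPBP) helps to load. In most nucleated cells these genes are transcribed at a basal level and rise with interferon or NF-κB signaling, and NLRC5 acts as their transactivator. Described here are 9 genes of this pathway, taken by name from the 61541 genes counted in a human HCC cell line with and without UBXN1 knockdown: the heavy chains HLA-B, HLA-C, HLA-E and HLA-F, the light chain B2M, the peptide transporter subunits TAP1 and TAP2, the tapasin gene TAPBP, and NLRC5.

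The cells were MHCC97H, an established hepatocellular carcinoma line. UBXN1 encodes a UBX domain protein that binds ubiquitin and the ATPase VCP. Control cells (shCon) carried a control shRNA and UBXN1-knockdown cells (shUBXN1) carried an shRNA against UBXN1, which by the study's methods was delivered from lentivirus in pLKO.1. Which UBXN1 shRNA was sequenced is not given in the sources used here, so an effect of UBXN1 loss and an effect particular to that shRNA cannot be told apart. Each group had 2 libraries, and whether they came from separate cultures is not stated, so p-values measure the spread between these libraries, which may be technical. The study's methods call the control shRFP and name a TruSeq kit, while the sample labels name shCon and a VAHTS mRNA kit.

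The libraries held 23373700 to 27380508 counts. UBXN1 was counted 1788 and 1817 times in shCon and 416 and 433 times in shUBXN1, a log2 fold change of -2.03 (SE 0.0963, adjusted p = 9.98e-10). Adjusted p-values here and below come from the quasi-likelihood test of edgeR, adjusted by the Benjamini-Hochberg method over 16863 genes. At an adjusted p under 0.05, 4727 genes were higher and 4751 lower in shUBXN1. The mitochondrial share of counts was 5.28% and 5.59% in shCon and 7.43% and 8.27% in shUBXN1, and its part in the results was not tested. Of 12 hepatocyte markers, 8 were lower and 2 higher in shUBXN1 (28.2% and 28.0% over all genes), and their summed TPM (reads per length, scaled to the same sum in every library) was 5463 and 5511 in shCon and 4666 and 5084 in shUBXN1. KRT8 and KRT18 made up most of that sum, with means of 4053 and 1302 TPM in shCon and 3116 and 1681 TPM in shUBXN1. ALB, the albumin gene, had 479 and 403 counts in shCon and 104 and 112 in shUBXN1. The log2 fold changes were -4.02 for FGB, -3.08 for TTR, -1.96 for TF, -1.85 for APOB, -0.99 for APOH and -0.44 for KRT8, and 0.40 for SERPINA1. Of 12 lymphocyte and myeloid markers, CD3E, CD2 and MS4A1 were at 0 in every library and PTPRC had at most 4 counts. Of the 6 tested, CD79A (1.21) and ITGAX (1.05) were higher, LYZ (-1.66) and CD68 (-0.25) were lower, and ITGAM (-0.39) did not pass the test. Summed TPM of that list was 126 and 134 in shCon and 157 and 144 in shUBXN1. CD68 made up most of it, with means of 100 TPM in shCon and 88 TPM in shUBXN1. Stromal and endothelial markers summed to 40.2 and 40.0 TPM in shCon and 44.6 and 45.9 TPM in shUBXN1, with COL1A1 (3.11), KDR (1.79) and PECAM1 (0.35) higher and DCN (-3.16) and LUM (-1.06) lower among 6 tested of 10. COL1A1 was at 3.79 without shCon replicate 1 and at 2.68 without shCon replicate 2. FGB was at -4.66 without shUBXN1 replicate 1 and at -3.60 without shUBXN1 replicate 2. The part of these lists in the results was not tested.

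The upstream sequence of these genes shows what they share before any value is read. Of the 9 genes, 7 matched an entry in RefSeq's promoter sequences (GRCh38.p14), and HLA-E and NLRC5 did not. In the stretch of each that lies before the transcription start, 4 short elements known from class I promoters were searched on both strands: an NF-κB consensus, an interferon regulatory factor core (AANNGAAA), the core of a cyclic AMP response element (TGACG) and a CCAAT box (CCAAT). The matched letters are in capitals, and a run of capitals can hold matches that overlap or touch. Each is written 5′ to 3′ in the direction of its gene, from the match farthest from the start to the match nearest to it with up to 10 bases on either side.
HLA-B, minus strand, chr6:31357221-31357366: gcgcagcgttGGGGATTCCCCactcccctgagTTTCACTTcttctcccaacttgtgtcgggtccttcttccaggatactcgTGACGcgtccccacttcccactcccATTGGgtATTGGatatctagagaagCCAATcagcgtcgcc
HLA-C, minus strand, chr6:31272134-31272294: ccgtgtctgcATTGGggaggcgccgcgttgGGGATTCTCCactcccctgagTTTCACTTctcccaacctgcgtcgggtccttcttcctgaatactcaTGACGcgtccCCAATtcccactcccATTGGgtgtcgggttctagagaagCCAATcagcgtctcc
HLA-F, plus strand, chr6:29723268-29723391: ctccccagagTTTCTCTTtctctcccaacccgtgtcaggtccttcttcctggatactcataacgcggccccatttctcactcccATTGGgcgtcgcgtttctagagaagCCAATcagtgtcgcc
B2M, plus strand, chr15:44711365-44711482: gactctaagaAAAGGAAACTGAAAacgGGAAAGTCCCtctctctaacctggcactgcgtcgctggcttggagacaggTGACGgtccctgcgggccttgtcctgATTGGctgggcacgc
TAP1, minus strand, chr6:32853757-32853954: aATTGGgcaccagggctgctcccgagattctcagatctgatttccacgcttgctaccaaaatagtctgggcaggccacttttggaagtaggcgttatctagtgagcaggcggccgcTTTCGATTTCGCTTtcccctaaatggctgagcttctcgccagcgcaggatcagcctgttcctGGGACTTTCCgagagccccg
TAP2, minus strand, chr6:32838760-32838811: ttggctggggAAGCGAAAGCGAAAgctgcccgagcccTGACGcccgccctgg
TAPBP, minus strand, chr6:33314079-33314144: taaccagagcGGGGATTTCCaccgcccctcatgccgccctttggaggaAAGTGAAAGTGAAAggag

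The interferon regulatory factor core occurred upstream of all 7 matched genes, against 20.3% of 35116 promoters searched over the same 250 bases. The NF-κB consensus occurred in HLA-B, HLA-C, B2M, TAP1 and TAPBP, against 9.96% of promoters, and had no match in HLA-F or TAP2. The cyclic AMP response element core lay in HLA-B, HLA-C, B2M and TAP2 (21.2% of promoters), and the CCAAT box in HLA-B, HLA-C, HLA-F, B2M and TAP1 (32.0% of promoters). HLA-B, HLA-C and B2M held all 4, as did 0.0598% of promoters. The elements were chosen because they are known from class I promoters, so none of these shares is a test of enrichment. A match is a description of letters, and no binding was measured here. GENCODE annotates transcripts of HLA-B, HLA-C, HLA-F, B2M, TAP1 and TAPBP that start upstream of the RefSeq start used here, and a further RefSeq start of TAP1 had no match to any of the elements.

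Of the 9 genes, 6 were higher in UBXN1-knockdown cells, 1 was lower and 2 did not pass the test. Over all genes tested, 28.0% were called higher and 28.2% lower. The median log2 fold change was 0.56 over the 9 genes and 0.02 over all genes tested. At a fold change of 2 with an unadjusted p under 0.05, the rule the study states, HLA-B and TAP1 were higher and 0 were lower, where 11.8% of all genes passed as higher and 6.09% as lower. None of the 9 genes was removed by the filter on low counts. The levels below are TMM-scaled CPM, that is counts relative to the total of their library, unless TPM is named.

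**Figure D1:**
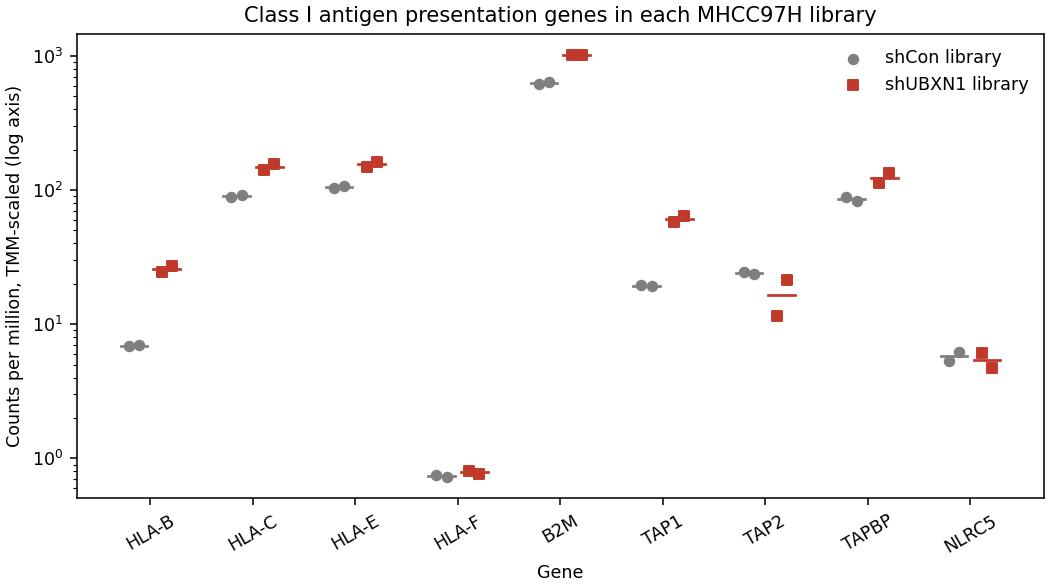
TMM-scaled CPM on a log axis for the 9 genes, with 1 point per library (circles shCon, squares shUBXN1, n = 2 each) and a line at each group's mean. HLA-B and TAP1 stand farthest apart between the groups, HLA-F and NLRC5 lie together, and the shUBXN1 libraries of TAP2 are spread from 11.6 to 21.2 CPM.

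HLA-B, a classical heavy chain that presents peptides to CD8+ T cells, changed most. It lies on the minus strand of chromosome 6, at 31353872 to 31367067 in GRCh38. Its level was 6.83 and 7.02 CPM in shCon and 24.6 and 27.2 CPM in shUBXN1. The groups did not overlap, and the log2 fold change was 1.90 (SE 0.121, adjusted p = 1.42e-08), a 3.74-fold rise. Per length it stayed the lesser of the classical chains, at 9.04 TPM in shCon and 35.2 TPM in shUBXN1 on average, beside 116 and 200 TPM for HLA-C.

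HLA-C, the other classical heavy chain here and a ligand of killer cell immunoglobulin-like receptors, had 88.9 and 91.2 CPM in shCon and 142 and 156 CPM in shUBXN1. Both knockdown libraries lay above both controls, with a log2 fold change of 0.72 (SE 0.0762, adjusted p = 1.93e-06). HLA-E, which displays leader peptides of other class I chains to the NKG2A receptor of natural killer cells, had 104 and 107 CPM in shCon and 149 and 162 CPM in shUBXN1. It rose by a log2 fold change of 0.56 (SE 0.0750, adjusted p = 2.13e-05), again without overlap.

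HLA-F, a nonclassical chain, was low, counted 20 and 17 times in shCon and 20 and 18 times in shUBXN1. Its log2 fold change was 0.10 with an SE of 0.459 (adjusted p = 0.875), so a change as large as that of HLA-C was not detectable at this depth. HLA-F-AS1, on the opposite strand over 12.4% of its exon bases, had 41 to 108 counts, more than HLA-F in every library, and a log2 fold change of 0.93 (adjusted p = 0.0121). The ratio of HLA-F to HLA-B in TPM was 0.115 and 0.106 in shCon and 0.0342 and 0.0295 in shUBXN1.

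The heavy chains did not keep their proportions. HLA-B per HLA-C, as a ratio of TPM within each library, was 0.0775 and 0.0781 in shCon and 0.176 and 0.177 in shUBXN1, a difference of 1.18 on the log2 scale. HLA-E per HLA-B went the other way, from 9.23 and 9.16 in shCon to 3.64 and 3.58 in shUBXN1. The groups did not overlap for either ratio, and each had p = 0.33 in an exact two-sided permutation test, the smallest p that 2 libraries against 2 allow. Near-identical sequence makes the split of reads between class I genes uncertain, and the counts of HLA-B, HLA-C, HLA-E and HLA-F were fractional in all 4 libraries. When these 4 chains, HLA-G and 9 class I pseudogenes were summed to 1 feature of 14 genes, the sum came to 5473 and 4939 in shCon and to 8013 and 8284 in shUBXN1. That sum, which does not depend on the split among them, had a log2 fold change of 0.71 (SE 0.0766, adjusted p = 2.48e-06).

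B2M, the light chain without which class I heavy chains are not stably displayed, was the most abundant of the 9 genes and the only one on chromosome 15, at 44711358 to 44718851. It had 621 and 634 CPM in shCon and 1021 and 1009 CPM in shUBXN1. The log2 fold change was 0.69 (SE 0.0791, adjusted p = 4.22e-06), and its counts were whole in every library. The TPM of B2M per summed TPM of HLA-B, HLA-C, HLA-E and HLA-F was 9.97 and 9.93 in shCon and 10.2 and 9.17 in shUBXN1. These ratios overlapped between the groups (difference of -0.04 on the log2 scale, exact permutation p = 1), beside summed heavy chains of 210 and 209 TPM in shCon and 360 and 367 TPM in shUBXN1.

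**Figure D2:**
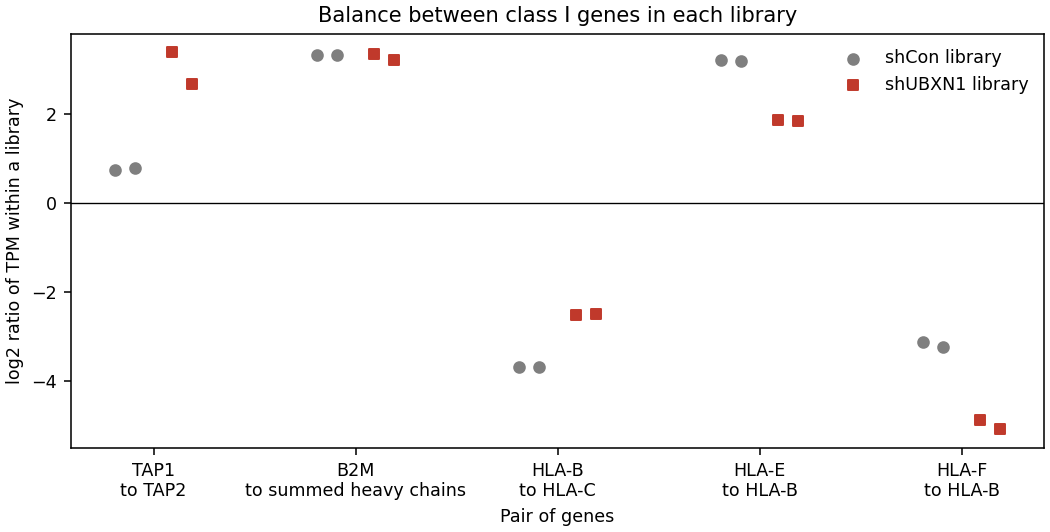
log2 ratio of TPM between pairs of class I genes within each library, with 1 point per library (circles shCon, squares shUBXN1, n = 2 each). The ratio of B2M to the summed heavy chains overlaps between the groups, while TAP1 to TAP2 and the ratios with HLA-B are apart.

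TAP1 and TAP2 form the transporter as a heterodimer, and their genes lie a few kilobases apart in the class II part of the MHC. The fitted changes of their RNAs had opposite signs, but the call of TAP2 as lower did not hold under every alternative, as given below. TAP1 had 19.6 and 19.2 CPM in shCon and 57.5 and 64.5 CPM in shUBXN1, a 3.15-fold rise (log2 fold change 1.65, SE 0.0901, adjusted p = 3.25e-09). It ranked after HLA-B in size of change, and its groups were far apart.

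TAP2 had 24.6 and 23.5 CPM in shCon and 11.6 and 21.2 CPM in shUBXN1. Both knockdown libraries lay below both controls, but they differed from each other more than the nearer of them did from the controls. Its log2 fold change was -0.55 (SE 0.187, adjusted p = 0.0208), and without shUBXN1 replicate 1 it was -0.19 (adjusted p = 0.157). The ratio of TAP1 to TAP2 in TPM was 1.67 and 1.71 in shCon and 10.4 and 6.38 in shUBXN1, a difference of 2.27 on the log2 scale (exact permutation p = 0.33, the smallest possible).

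The fall of TAP2 also depended on how overlapping genes were counted. A readthrough gene on the same strand, ENSG00000250264, covers 19.5% of the exon bases of TAP2, and reads were divided between them. That gene was counted 708 and 667 times in shCon and 772 and 612 times in shUBXN1, where TAP2 itself was counted 657 and 552 and then 288 and 497 times. Summed, they held 1365 and 1219 counts in shCon and 1060 and 1110 in shUBXN1, with a log2 fold change of -0.19 (SE 0.0811, adjusted p = 0.0572), so the call did not hold for the sum. The summing was chosen after the data were seen.

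TAPBP encodes tapasin, which holds empty class I molecules beside the transporter and edits their peptides. It lies on the minus strand at 33299694 to 33314284 of chromosome 6. It had 88.2 and 82.9 CPM in shCon and 112 and 133 CPM in shUBXN1. The log2 fold change was 0.52 (SE 0.0861, adjusted p = 0.000146), the smallest of the 6 rises. Genes on the opposite strand overlap the exons of TAPBP and TAP1, and strand use in counting is not given in the sources used here. ENSG00000289100, over 21.0% of TAPBP's exon bases, had a log2 fold change of 0.72 with at most 460 counts, against at least 1947 for TAPBP. PSMB8-AS1, over 14.2% of TAP1's exon bases, had a log2 fold change of 1.82 (adjusted p = 0.00615) with at most 36 counts, against at least 450 for TAP1.

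NLRC5, the class I transactivator, is on chromosome 16 at 56989485 to 57083531. It had 5.33 and 6.17 CPM in shCon and 6.10 and 4.70 CPM in shUBXN1. The groups overlapped, with a log2 fold change of -0.09 (SE 0.203, adjusted p = 0.741), and its sign turned with total count scaling. A range of 2 SE either side of that value stays below the rises of HLA-C (0.72), B2M (0.69) and TAPBP (0.52), while a smaller change of NLRC5 would not have been detectable.

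**Figure D3:**
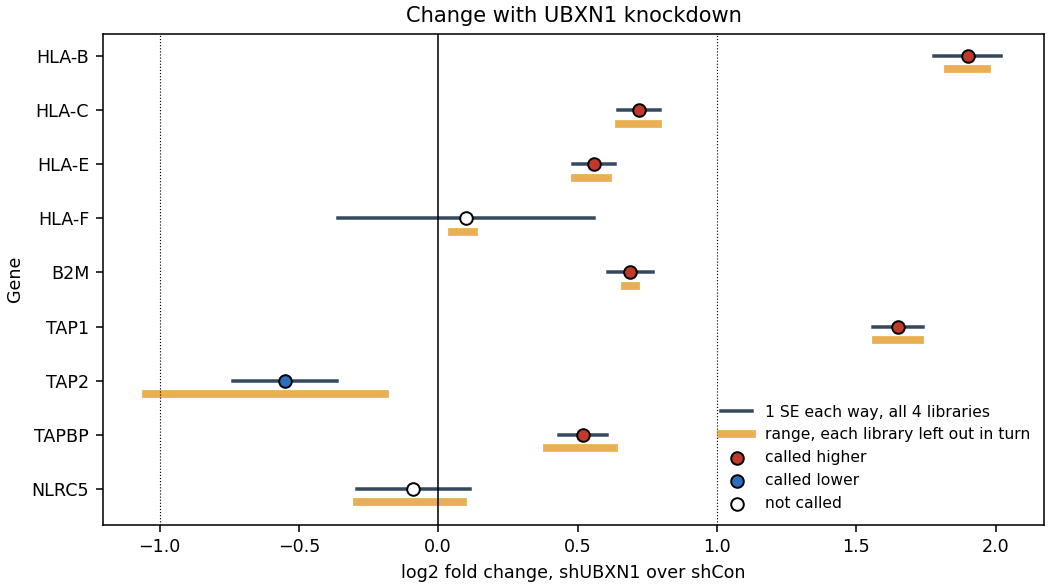
log2 fold change of shUBXN1 over shCon for the 9 genes (points; red called higher, blue called lower, white not called), with 1 SE each way (dark lines) and the range when each of the 4 libraries was left out in turn (orange bars). Dotted lines mark a fold change of 2; TAP2 has the widest range, from -1.05 to -0.19.

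In order of TPM, the levels in shCon were B2M (2083), HLA-C (116), TAPBP (90.9), HLA-E (83.1), TAP1 (14.5), HLA-B (9.04), TAP2 (8.56), NLRC5 (1.69) and HLA-F (0.997), each a mean of 2 libraries. In shUBXN1 the order was B2M (3513), HLA-C (200), TAPBP (135), HLA-E (127), TAP1 (47.4), HLA-B (35.2), TAP2 (6.02), NLRC5 (1.66) and HLA-F (1.12). The order was the same in both groups, and no neighbours in it overlapped between their 2 libraries. The gap between TAPBP (86.7 and 95.1 TPM) and HLA-E (83.3 and 82.9 TPM) in shCon was nevertheless smaller than the spread of TAPBP, as it was in shUBXN1 (129 and 142 TPM against 126 and 128 TPM). HLA-B and TAP2 lay close in shCon, at 9.03 and 9.05 TPM against 8.88 and 8.23 TPM, and apart in shUBXN1, at 34.7 and 35.7 TPM against 4.46 and 7.57 TPM.

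Transcriptional regulators of class I genes, interferon and NF-κB factors among them, were examined in a list of 17, all tested. Of these 17, 5 were higher and 4 lower (28.0% and 28.2% over all genes, as above), with a median log2 fold change of 0.00. IRF9, the DNA-binding subunit of the interferon-stimulated complex ISGF3, had 5.55 and 3.66 CPM in shCon and 15.2 and 15.3 CPM in shUBXN1, a log2 fold change of 1.72 (SE 0.177, adjusted p = 1.51e-06). STAT2, which binds IRF9 in that complex, had 30.8 and 29.7 CPM in shCon and 69.8 and 59.8 CPM in shUBXN1, a log2 fold change of 1.10 (SE 0.0899, adjusted p = 1.58e-07). RFX5, the DNA-binding subunit of the RFX complex on class I and class II promoters, had 55.0 and 54.6 CPM in shCon and 163 and 168 CPM in shUBXN1. Its log2 fold change of 1.60 (SE 0.0734, adjusted p = 7.41e-10) stood apart from its partners RFXAP (-0.46) and RFXANK (0.16), neither of which passed the test. IRF1, which binds the interferon element, rose by a log2 fold change of 0.62 and the NF-κB subunit RELA by 0.31. EZH2, the histone methyltransferase of PRC2, fell, with a log2 fold change of -0.50, as did the CCAAT-binding subunits NFYA (-0.36) and NFYC (-0.29) and the NF-κB subunit NFKB1 (-0.21). CIITA, the class II transactivator, had 54 and 36 counts in shCon and 56 in each shUBXN1 library, and did not pass the test.

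Of 10 interferon receptors, their kinases and their inhibitors, 6 were higher and 3 lower, beside 28.0% and 28.2% over all genes, with a median log2 fold change of 0.32. The feedback inhibitor SOCS3 had 14.3 and 15.4 CPM in shCon and 35.6 and 42.4 CPM in shUBXN1 (log2 fold change 1.39, SE 0.108, adjusted p = 9.89e-08). SOCS1, another inhibitor of JAK kinases, was counted 7 and 0 times in shCon and 37 and 18 times in shUBXN1 (log2 fold change 3.0, SE 0.771, adjusted p = 0.00425). Its value rested on few control reads. It was 2.09 without shCon replicate 2, and without shCon replicate 1, which leaves a control at 0, the fitted 7.77 depends on the prior count and is no bound. The receptor chains of interferon-γ differed in direction, with IFNGR1 at -0.58 and IFNGR2 at 0.47, both past the test. JAK2 was higher at 0.57. That call was lost with DESeq2, with limma on log2(TPM + 1) or log2(TPM + 0.1), and when shCon replicate 2 was left out.

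Loading partners of class I in the endoplasmic reticulum were divided in direction. Of 10 chaperones, trimming peptidases and translocon genes, 3 were higher and 4 lower, beside 28.0% and 28.2% over all genes, and the median log2 fold change was 0.00. TAPBPL, the tapasin-like editor, had 14.0 and 14.5 CPM in shCon and 27.0 and 23.8 CPM in shUBXN1 (log2 fold change 0.84, SE 0.109, adjusted p = 1.56e-05), the largest rise of the list. ERAP1, which trims peptides to class I length, fell from 47.0 and 48.8 CPM to 29.5 and 30.5 CPM (log2 fold change -0.68, SE 0.0821, adjusted p = 7.85e-06). UGGT1, which returns poorly folded glycoproteins to the chaperone cycle, fell, with a log2 fold change of -0.53, and calreticulin (CALR), -0.44. ERAP1's paralog ERAP2 rose by a log2 fold change of 0.32.

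In the list named for the cytosolic supply of peptides, 2 of 14 proteasome subunits and peptidases were higher and 5 lower. The shares over all genes were 28.0% and 28.2%, and the median log2 fold change of the list was -0.12. The immunoproteasome gene PSMB8 lies between TAP2 and TAP1, and PSMB9 and TAP1 are known to be transcribed in opposite directions from a shared promoter, whose TAP1 side is printed above. PSMB9 had 114 and 83 counts in shCon and 139 and 110 in shUBXN1, with a log2 fold change of 0.40 (SE 0.222, adjusted p = 0.142). PSMB8 (0.14) and PSMB10 (-0.17) did not pass the test either, and the difference between TAP1 and PSMB9 in their change was not tested. PSME2, a subunit of the PA28 activator, rose by 0.30 on the log2 scale. The constitutive subunit PSMB5 had a log2 fold change of -0.42, and THOP1, a peptidase that cuts peptides, -0.68. LNPEP, a membrane peptidase that trims peptides in endosomes and not in the cytosol, had a log2 fold change of -0.41.

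**Figure D4:**
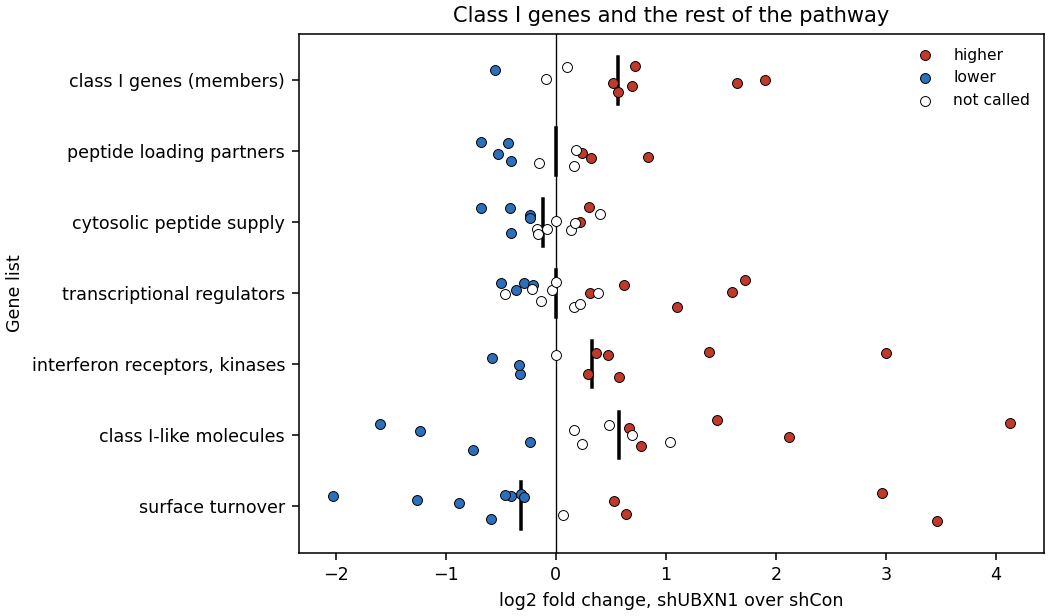
log2 fold change of shUBXN1 over shCon for every tested gene of 7 lists (points jittered vertically; red called higher, blue called lower, white not called), with a black line at each list's median. The class I genes have a median of 0.56, and the medians of loading partners, cytosolic supply and transcriptional regulators lie at 0.00, -0.12 and 0.00.

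Of the 9 genes, 7 lie in the MHC, from HLA-F to TAPBP (chromosome 6, 29722775 to 33314284). This 3.59 Mb held 326 genes of the table, 131 of them tested. Without the 7 genes, 34 of 124 were higher (27.4%) and 33 lower (26.6%), with a median log2 fold change of 0.01. The share called higher in the rest of the region was close to that of all genes, 28.0%.

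**Figure D5:**
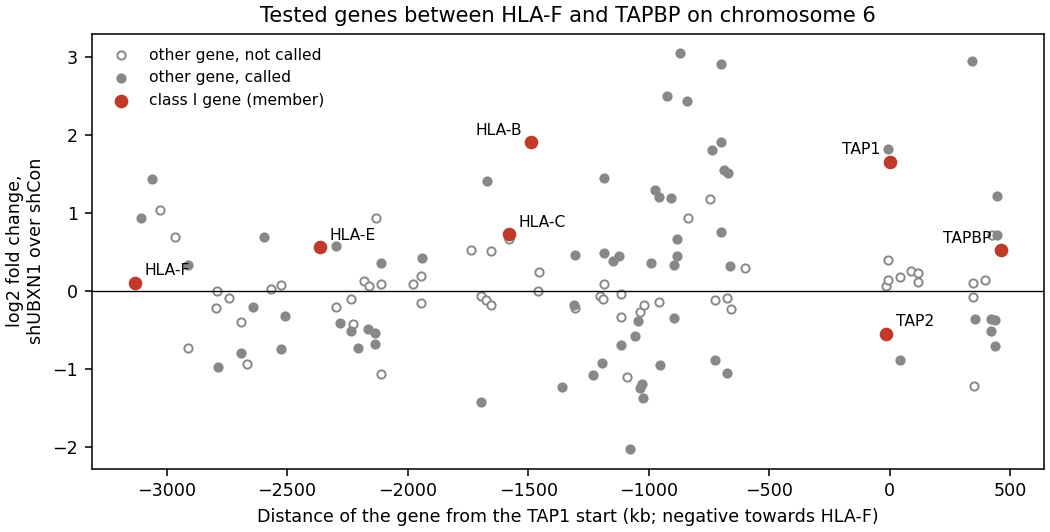
log2 fold change of shUBXN1 over shCon for the 131 tested genes between HLA-F and TAPBP, by distance from the TAP1 start in kb (red the 7 class I genes, filled grey other genes called in either direction, open not called). The class I genes sit among neighbours of both directions, whose median without them is 0.01.

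The genes outside the lists whose pattern over the 4 libraries was most like the median of the 9 were TP53BP1, UCHL1 and UBE2H, with Euclidean distances of 0.0268, 0.0321 and 0.0335 in log2 CPM from their own means. Of 11898 genes compared, 163 lay within 0.1 of that median pattern, so with 4 libraries it was shared by many genes.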

How the data were processed

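RNA of 4 MHCC97H libraries (2 shCon, 2 shUBXN1) was sequenced in paired ends. The table that the authors deposited holds 1 expected count per gene and library, without normalization, and a gene length. The submitters' processing notes list HISAT2 2.0.4, StringTie 1.3.0 and GRCh37, while the study's methods name Hisat2, GRCh38, TPM and limma. The annotation release and strand setting are not given in the sources used here. The table has no coordinates, so positions were taken by gene ID from GENCODE (GRCh38), and 99.7% of IDs had a symbol. Whole numbers made up 62.4% to 64.6% of values above 0, so reads were divided between genes, and all 9 genes but B2M and NLRC5 had fractional counts in all 4 libraries.

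Expected counts were rounded, filtered with filterByExpr, scaled by TMM (factors 0.967 to 1.06) and compared by edgeR 4.0.16 (R 4.3.3; functions glmQLFit, then glmQLFTest) with no block, calling genes at an adjusted p under 0.05. TPM were computed here from the deposited counts and lengths. The common spread between replicates was a biological coefficient of variation of 0.0711. Replicates differed by more than sampling noise (chi-square per degree of freedom 3.75 and 8.34). The scripts were tested on simulated data. Counting error and spread between libraries enter the SE, but 2 libraries per group limit how well that spread is known.

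The genes and lists were chosen with earlier results of these data known, and the lists by function. Some list genes are not reported here. In each list, the text names genes at a fold change of 2 with an adjusted p under 0.05, the 3 largest changes among the rest above a mean log2 CPM of 2, and some others for their role or to complete a count, chosen after their values were seen. Likeness was the Euclidean distance of log2 CPM deviations among genes above that level. Alternatives were DESeq2 1.42.0, other scalings, limma 3.58.1 (voom, and log2(TPM + 1) or log2(TPM + 0.1)), filters on low counts, unrounded counts, a GC correction, a replicate block, summed features and leaving out each library.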

Additional observations from a re-analysis of the deposited data

How the results depend on the processing

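The calls of HLA-B, HLA-C, HLA-E, B2M, TAP1 and TAPBP as higher held under each of 11 alternatives and without each library, where the lone sample of a group was assumed to vary like the other group. TAP2 did not: 0 of the 9 genes were called lower with DESeq2 (adjusted p = 0.302 for TAP2), total count scaling (0.0862), limma on log2(TPM + 1) (0.119) or log2(TPM + 0.1) (0.115), or at a fold change of 2, where 2 were called higher, and 0 to 1 when each library was left out. The cause was not tested. NLRC5, not called, reversed to 0.00195 with total count scaling, which moved the median of all genes from 0.02 to 0.10, and ranged from -0.29 to 0.09 when each library was left out (0.02 without shCon replicate 2). The median over the 9 genes was 0.64 with total count scaling, 0.44 with the GC trend removed and 0.49 to 0.63 with each library left out. On log2(TPM + 1), HLA-B to HLA-C differed by 1.07 and HLA-E to HLA-B by -1.24, since the added 1 shrinks ratios with low genes.

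Replicate numbers did not pair the samples (correlation of deviations 0.0393). A replicate block gave 5000 genes higher and 5023 lower against 4727 and 4751, and changed no call of the 9 genes. Of the other genes named by rule, calls of JAK2, HLA-V, RAET1L, LNPEP, ITGAX, CD68, KRT8, LYZ and SERPINA1 were lost under at least 2 alternatives. Depth limits HLA-F, with at most 20 counts in a library.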

Other observations

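Relatives of class I that engage other receptors include members called in each direction. Of 15 class I-like genes, 14 were tested, 5 were higher and 4 lower, beside 28.0% and 28.2% over all genes, with a median log2 fold change of 0.57. Among ligands of NKG2D, the activating receptor of natural killer cells, RAET1G had 2 and 4 counts in shCon and 53 and 52 in shUBXN1 (log2 fold change 4.13, SE 0.548, adjusted p = 1.84e-05 in edgeR's quasi-likelihood test). That change was 4.77 without shCon replicate 2 and 3.63 without shCon replicate 1. ULBP2 had 4.58 and 3.70 CPM in shCon and 11.2 and 11.6 CPM in shUBXN1 (log2 fold change 1.46, SE 0.170). ULBP3 rose by 0.77 on the log2 scale, and RAET1L, with 2 to 20 counts per library, by 2.12. RAET1L was at 2.79 without shCon replicate 1, and its call was lost without shCon replicate 2 (1.70) or shUBXN1 replicate 1 (1.58). MICB, another NKG2D ligand, fell from 12.0 and 13.0 CPM to 4.97 and 5.64 CPM (log2 fold change -1.24, SE 0.154, adjusted p = 1.01e-05), while its neighbour MICA had 15.7 and 13.8 CPM in shCon and 18.0 and 16.9 CPM in shUBXN1 and did not pass the test. These genes are close paralogs, so the split of reads among them is uncertain. AZGP1, a soluble class I-like protein, had a log2 fold change of -1.60, HFE, which regulates iron uptake, -0.75, and FCGRT, the neonatal Fc receptor, which also pairs with B2M, 0.66.

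Of 13 genes of the MHC class II pathway, 4 were tested and 1 (CTSS, 0.47) was higher, while HLA-DMA (0.23) did not pass the test. HLA-DRA, HLA-DRB1, HLA-DRB5 and HLA-DQA1 were at 0 in every library. Of 9 class I pseudogenes, 4 were at 0 throughout, and HLA-V (1.43) and HLA-L (0.69) were higher among the 3 tested. HLA-V was at 2.08 without shCon replicate 1, and its call was lost without shCon replicate 2 (1.01) or shUBXN1 replicate 1 (1.06).

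Of 13 genes listed under surface turnover of class I, 8 were lower and 4 higher, beside 28.2% and 28.0% over all genes, with the knocked-down UBXN1 itself among the 8 and a median log2 fold change of -0.32. An action of each listed gene on class I was not tested. The membrane ubiquitin ligases diverged. MARCHF4 had 33 and 14 counts in shCon and 246 and 248 in shUBXN1 (log2 fold change 3.46, SE 0.270, adjusted p = 1.01e-07). Its change was 4.09 without shCon replicate 1 and 3.05 without shCon replicate 2. MARCHF9 had 92 and 76 counts in shCon and 579 and 675 in shUBXN1 (2.96, SE 0.150). MARCHF8 had 482 and 472 counts in shCon and 188 and 195 in shUBXN1 (log2 fold change -1.26, SE 0.128). VCP, the ATPase that UBXN1 binds, had 693 and 695 CPM in shCon and 432 and 489 CPM in shUBXN1 (log2 fold change -0.59, SE 0.0834). NBR1, a selective autophagy receptor, was higher by 0.64, and SUSD6, by 0.53. Only RNA was measured, and the amount of class I at the cell surface was not analysed here.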
